A study of Mus musculus with 6 samples.

Results

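The mitochondrial genome of the mouse encodes 37 genes, and all 37 were found in the count table as the rows whose gene name starts with mt-, out of 57180 genes. They were 13 mRNAs of respiratory chain subunits, 2 rRNAs and 22 tRNAs. RNA had been sequenced from osteoclast precursors (OCPs), which are macrophages on the way to becoming osteoclasts, the multinucleated cells that resorb bone. The WT group held 3 libraries from wild-type C57BL/6 mice, and the KO group held 3 libraries from mice lacking lincRNA-EPS, a long non-coding RNA of macrophages. The labels give neither the age of the mice nor how the deletion was made, and they call the cells bone marrow-derived macrophages. Both groups were grown with 40 ng/ml M-CSF, the macrophage growth factor, for 24 h, after which 40 ng/ml RANKL, the cytokine that starts osteoclast differentiation, was present for a further 48 h. Per the submitters' design text the replicates of a group were biologically independent.

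Mitochondrial DNA is transcribed from both strands into long precursors, from which the tRNAs are cut out and so free the mRNAs and rRNAs between them. Its mRNAs encode the membrane core of the respiratory chain: 7 subunits of complex I, which oxidizes NADH, cytochrome b of complex III, 3 subunits of complex IV, which reduces oxygen, and 2 subunits of the ATP synthase, also called complex V. The other subunits of these complexes, and all of complex II, are encoded in the nucleus. Osteoclasts are rich in mitochondria, and respiration supplies much of the energy for their differentiation and for bone resorption.

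The libraries held 17757351 to 19998611 counts, so that 3 counts, the smallest level taken as measured, were 0.150 to 0.173 CPM, counts scaled to a common library total. This floor covers counting error only. Ttc39aos1, the gene of lincRNA-EPS, had 20, 37 and 41 counts in the WT libraries and 0 in each KO library. The 5 macrophage markers and the 5 osteoclast precursor markers were above 1 CPM in every library. Their summed levels were 3864 to 4308 CPM and 2213 to 2347 CPM in WT, and 3455 to 3680 CPM and 3309 to 3417 CPM in KO. Of 5 neutrophil markers 4 were above 1 CPM in every library, with sums of 721 to 876 CPM in WT and 1027 to 1275 CPM in KO. The sums stayed at or under 4.26 CPM for B cell, 0.230 CPM for T cell and 0.682 CPM for erythroid markers, and were 9.06 to 18.0 CPM for stromal markers, of which Bglap was at 0. Fewer cells of a type and less RNA per cell cannot be told apart in such bulk samples, and the part of these markers in the results below was not tested.

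Some of these genes cannot be read from their own rows alone, because the nuclear genome carries near-identical copies of stretches of mitochondrial DNA. A sequence search of the annotated mouse transcripts found 11 copies with at least 95% identity over at least 100 bases, of which 7 lie side by side on the minus strand of chromosome 1 (chr1:24611535-24616197, GRCm38). These 7 follow the order of the mitochondrial genes from mt-Co1 to mt-Nd4. The sequences below show how little separates a mitochondrial mRNA from its copy. In the first pair the capital marks the only base that differs within the aligned 483 bases, A1066T, where position 1066 is counted from 1 at the 5′ end of mt-Co1. The letters ahead of the alignment in Gm29216 are not from mt-Co1. In the second pair the capital marks the only difference over 345 bases, T3C, counted in the same way in mt-Nd3. In the third pair the capitals mark the final TAA of mt-Co2, which is missing from Gm28661, whose 681 bases otherwise matched mt-Co2 without a mismatch.
mt-Co1: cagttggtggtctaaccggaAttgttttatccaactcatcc
Gm29216: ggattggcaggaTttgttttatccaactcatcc
mt-Nd3: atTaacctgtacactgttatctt
Gm28438: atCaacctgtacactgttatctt
mt-Co2: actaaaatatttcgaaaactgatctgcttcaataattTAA
Gm28661: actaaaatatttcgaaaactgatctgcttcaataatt

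Overlaps and incomplete stop codons also bear on counting, and their sequences are given for that reason. The reading frames of mt-Atp8 (chrM:7766-7969) and mt-Atp6 (chrM:7927-8607) share 43 bases, and those of mt-Nd4l (chrM:9877-10173) and mt-Nd4 (chrM:10167-11544) share 7 bases. The capitals mark the start codon of the downstream frame and the stop codon of the upstream frame. Further, mt-Co3, mt-Nd4 and mt-Cytb end with a lone T, in capitals below, past their last complete codon. In such mitochondrial mRNAs the poly(A) tail completes the stop codon, and the libraries were made with an mRNA kit that captures poly(A) tails.
mt-Atp8 and mt-Atp6: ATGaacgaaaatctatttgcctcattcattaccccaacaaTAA
mt-Nd4l and mt-Nd4: ATGcTAA
mt-Co3: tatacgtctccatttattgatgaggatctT
mt-Nd4: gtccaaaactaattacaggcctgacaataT
mt-Cytb: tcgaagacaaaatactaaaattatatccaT

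For mt-Co2 and mt-Co3, core subunits of complex IV, most of the summed counts of gene and copies stood in the rows of the nuclear copies. The row of mt-Co2 held 505, 565 and 1913 counts in WT and 1016, 737 and 3265 in KO, whereas its copy Gm28661 held 56046, 31705 and 52580 in WT and 61887, 73027 and 135324 in KO. Copies thus held 96.5 to 99.1% of the summed counts of mt-Co2. For mt-Co3 the share on Gm28437 was 87.6 to 97.8%. The division was uneven between libraries of one genotype.

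Of the mRNAs of complexes I and V, mt-Atp6, mt-Nd3 and mt-Nd4l shared counts with a copy. The copies held 62.7 to 90.9% of the counts of mt-Atp6 (Gm10925), 66.2 to 90.3% of mt-Nd3 (Gm28438) and 38.6 to 86.8% of mt-Nd4l (Gm10222). In each of these 3 genes KO replicate 3 had the lowest share on the copy. In mt-Co1, the largest mRNA of complex IV, the copies held 1.67 to 5.07%, nearly all on Gm29216. The other 7 mRNAs and both rRNAs had no counts on the copies found, and sequence outside annotated transcripts was not searched. These genes include mt-Nd4, whose first 876 bases are identical to those of Gm28439, a row with 0 counts in all 6 libraries. They also include mt-Atp8, for which no copy was found, though the mRNAs on either side of it, mt-Co2 and mt-Atp6, have one.

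The estimated counts of the 6 genes were not within 0.02 of a whole number in 34 of 36 values, whereas the sums of each gene and its copies were so in 36 of 36 values. Over all members the copies held 30.4 to 31.5% of the counts in every library. For these 6 genes the counts of the copies were therefore added to the gene, and both versions are given. A contribution of RNA made from the nuclear copies themselves cannot be told apart from mitochondrial RNA in these sums.

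**Figure D1:**
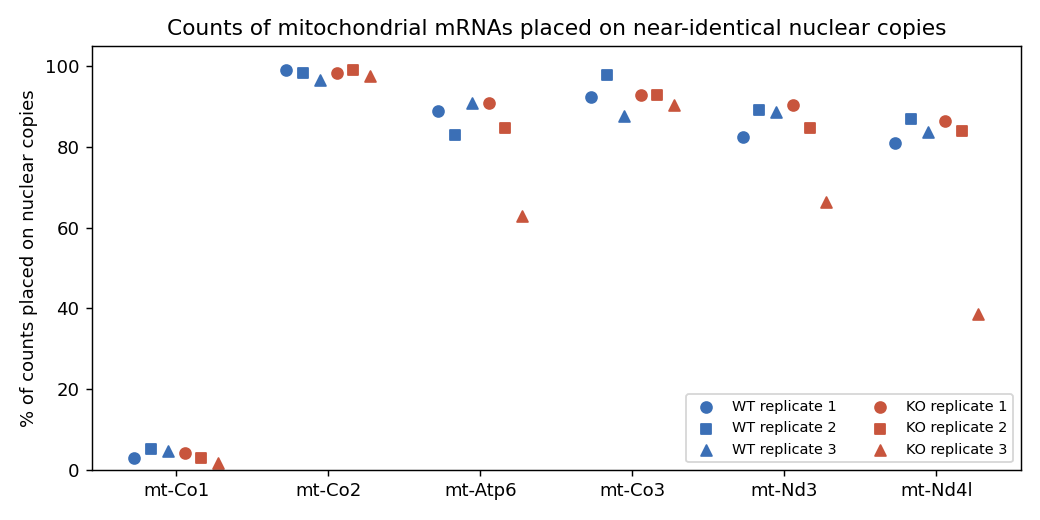
Percent of the summed counts of 6 mitochondrial mRNAs that stood in the rows of nuclear copies, 1 point per library (blue WT, red KO, shape for the replicate). The copies held 96.5 to 99.1% of mt-Co2 and 1.67 to 5.07% of mt-Co1, and KO replicate 3 was lowest for mt-Atp6, mt-Nd3 and mt-Nd4l.

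The share of the library taken by mitochondrial RNA was higher in each KO library than in any WT library. As deposited, all 37 genes together took 1.50, 1.00 and 1.53% of the counts in WT and 1.78, 2.12 and 3.32% in KO. With the copies added the shares were 2.19, 1.44 and 2.21% in WT and 2.60, 3.10 and 4.77% in KO. WT replicate 2 was the lowest library and KO replicate 3 the highest, and KO replicate 1 stood nearest to the WT libraries.

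With copies added the mean share was 1.95% ± 0.437 (SD, n = 3) in WT and 3.49% ± 1.14 (SD, n = 3) in KO. The two-sided exact permutation test gave p = 0.1, the smallest that 3 libraries against 3 can give, and 0.125 after Benjamini-Hochberg adjustment over the 10 shares and ratios, so that no such comparison could pass 0.05. The difference of 1.54 percentage points was 0.899 without KO replicate 3, and 0.647 without KO replicate 3 and WT replicate 2.

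These libraries also differed along the GC content of their transcripts. The correlation of a library's deviation from the mean with GC content was taken across 13161 nuclear genes that are not independent replicates. It was 0.190, 0.561 and 0.229 in WT and 0.0448, -0.0966 and -0.604 in KO. Each WT library thus stood above each KO library, and the part of this trend in the differences between genotypes was not tested. The tested mitochondrial genes had 31.9 to 41.1% GC, against a median of 49.2% in the tested nuclear genes. Log2 fold changes corrected for this trend, with a smooth curve of GC content fitted to each library, are therefore given beside the uncorrected ones of each mitochondrial gene. Shares of counts were not corrected.

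**Figure D2:**
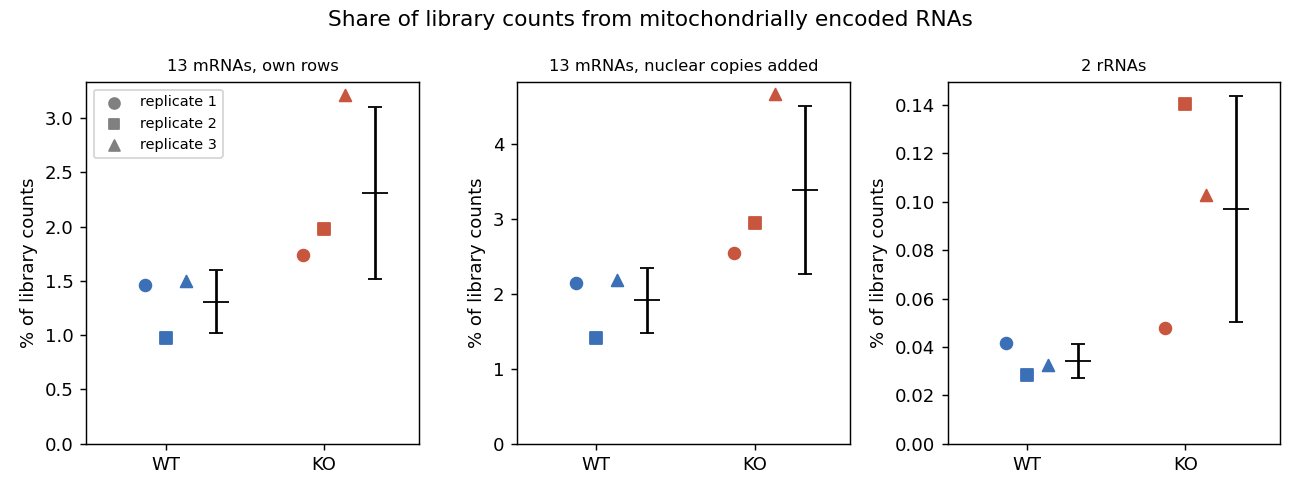
Percent of each library's counts from the 13 mitochondrial mRNAs in their own rows, the same with nuclear copies added, and the 2 rRNAs, 1 point per library and the mean with SD (n = 3) in black. The 3 KO libraries lie above the 3 WT libraries in each panel, with KO replicate 3 highest for mRNAs at 3.22% and 4.67%, and KO replicate 2 highest for rRNAs at 0.140%.

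Genes were compared between KO and WT in 1 fit over the 13428 genes with enough counts, by edgeR's quasi-likelihood test. The 13 mRNAs and 2 rRNAs were among them and the 22 tRNAs were not. A gene was called at an adjusted p under 0.01 with a fold change above 1.3. None of the 15 tested members was called, as deposited or with copies added, where 0% of all tested genes were called higher and 0.00745% lower, which was the single gene Dtx3l, named here after its values were seen. At an unadjusted p under 0.05, 11 of the 15 members were higher in KO as deposited and 13 of 15 with copies added, against 13% of all tested genes in either version, and 0 were lower. The members are cut from shared precursors, so they are not independent of each other and their number is not one of separate observations. DESeq2's Wald test called 2 members higher in KO, mt-Nd2 and mt-Nd4, against 0.447% of all tested genes, and 1 with copies added, mt-Nd4, against 0.432%. The counts of mt-Nd2 were the same in both versions. Its log2 fold change by DESeq2 was 1.03 in each, with a standard error of 0.26 as deposited and 0.39 with copies added.

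All 15 fold changes were above 0, and the median log2 fold change of the 13 mRNAs was 0.95 as deposited and with copies added, where the median of all tested genes was 0.0091. With GC correction the median of the 13 mRNAs was 0.53 as deposited and 0.51 with copies added. In 12 of 15 members with copies added, and in 8 of 15 as deposited, the lowest KO library was above the highest WT library, as in 16.9% of all tested genes. Here too the members are not independent of each other. The 3 members whose groups overlapped with copies added were mt-Rnr1, mt-Atp8 and mt-Nd4l.

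In the text that follows, levels are in CPM after scaling of the library sizes (TMM), fold changes are log2 of KO over WT with their standard errors, and the 6 genes above have their copies added unless stated. By edgeR's quasi-likelihood test the adjusted p over all genes lay between 0.143 and 0.147 for 13 of the 15 members, and was 0.209 for mt-Atp8 and 0.475 for mt-Nd4l.

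Of the complex I mRNAs, mt-Nd1 (chrM:2751-3707, plus strand), a membrane arm subunit beside the quinone site, had 1643, 1025 and 1695 CPM in WT and 2116, 2803 and 4871 CPM in KO. The groups did not overlap, and the log2 fold change was 1.17 ± 0.30 (SE, n = 3 per group), or 0.79 with GC correction and 0.76 without KO replicate 3. The membrane subunit mt-Nd2 (chrM:3914-4951) stood at 806, 497 and 789 CPM in WT and 980, 1220 and 2074 CPM in KO. Its log2 fold change was 1.03 ± 0.28, or 0.60 with GC correction and 0.66 without KO replicate 3.

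The subunits mt-Nd4 and mt-Nd5 resemble antiporters and take part in proton pumping. mt-Nd4 had 1258, 850.0 and 1301 CPM in WT and 1539, 1944 and 3102 CPM in KO, a log2 fold change of 0.95 ± 0.26, or 0.51 with GC correction and 0.62 without KO replicate 3. mt-Nd5 (chrM:11742-13565) had 1420, 1056 and 1451 CPM in WT and 1679, 1651 and 2529 CPM in KO, a log2 fold change of 0.58 ± 0.19. KO replicates 1 and 2 were close to each other in mt-Nd5, and its log2 fold change was 0.20 with GC correction and 0.35 without KO replicate 3.

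mt-Nd3 (chrM:9459-9806), a short subunit that lines the link between the arms of complex I, depended on the copies. In its own row it had 34.1, 11.9 and 22.1 CPM in WT and 22.7, 50.7 and 208 CPM in KO, so that the groups overlapped and 1 KO library stood far above the others. With Gm28438 added it had 195, 111 and 194 CPM in WT and 233, 331 and 616 CPM in KO, without overlap. The log2 fold change was 2.04 ± 0.72 in its own row and 1.24 ± 0.34 with the copy. The latter was 0.70 with GC correction and 0.76 without KO replicate 3, and the former was 0.68 without KO replicate 3.

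mt-Nd4l, the smallest complex I subunit here, had the smallest fold change of the members once copies were added. With Gm10222 added it had 142, 99.2 and 158 CPM in WT and 178, 122 and 165 CPM in KO, and KO replicate 2 was below 2 of the WT libraries. The log2 fold change was 0.22 ± 0.19, which became -0.0098 with GC correction, while in its own row it was 1.13 ± 0.58, or -0.012 without KO replicate 3. Without WT replicate 2 the sum gave 0.043. mt-Nd4l and mt-Nd4 are carried on a shared transcript, and per 100 counts of mt-Nd4 there were 11.3, 11.7 and 12.1 of mt-Nd4l in WT and 11.5, 6.26 and 5.31 in KO. KO replicate 1 thus lay within the WT range, and KO replicates 2 and 3 lay below it. In their own rows the ratios were 2.14, 1.54 and 1.99 in WT and 1.58, 0.999 and 3.26 in KO, where KO replicate 3 was the highest library.

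mt-Nd6 (chrM:13552-14070, minus strand) is the only mRNA encoded on the other strand, and it overlaps mt-Nd5 by 14 bases. It had 197, 124 and 202 CPM in WT and 253, 329 and 692 CPM in KO, a log2 fold change of 1.29 ± 0.35. It was 0.77 with GC correction and 0.74 without KO replicate 3. Per 100 counts of mt-Nd5 there were 13.9, 11.7 and 13.9 of mt-Nd6 in WT and 15.1, 19.9 and 27.3 in KO, so each KO library was above the WT libraries. The kit keeps the strand, but the strand setting of the counting was not given in the sources used here, so reads of mt-Nd6 and antisense reads from the opposite strand cannot be told apart.

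Of the other complexes, mt-Cytb (chrM:14145-15288), cytochrome b of complex III, had 2033, 1407 and 2064 CPM in WT and 2427, 2793 and 4580 CPM in KO. The groups did not overlap and the log2 fold change was 0.83 ± 0.25, or 0.50 with GC correction and 0.51 without KO replicate 3.

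The mRNAs of complex IV were the most abundant. mt-Co1 (chrM:5328-6872), the subunit that binds the oxygen-reducing centre, had 6793, 4744 and 7004 CPM in WT and 7788, 8966 and 12521 CPM in KO. Its log2 fold change was 0.66 ± 0.21, or 0.37 with GC correction and 0.44 without KO replicate 3. mt-Co2 (chrM:7013-7696), which takes electrons from cytochrome c, had 2836, 1766 and 2860 CPM in WT and 3276, 4242 and 7057 CPM in KO.

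In mt-Co2 the sum gave a log2 fold change of 0.97 ± 0.29 without overlap, which was 0.62 with GC correction and 0.60 without KO replicate 3. By contrast its own row gave 0.74 ± 0.61 with overlap, and -0.13 without KO replicate 3. mt-Co3 (chrM:8607-9390) had 2480, 1656 and 2502 CPM in WT and 2845, 3507 and 5268 CPM in KO, a log2 fold change of 0.81 ± 0.24, or 0.48 with GC correction and 0.52 without KO replicate 3. Its own row gave 0.84 ± 0.62, and between 0.35 and 1.50 with each library left out in turn, lowest without KO replicate 3 or WT replicate 2 and highest without WT replicate 3. The standard errors of both genes were thus smaller in the sums than in the rows.

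Of the ATP synthase subunits, mt-Atp6, which forms the proton path, had 1381, 804 and 1386 CPM in WT and 1634, 2195 and 3863 CPM in KO. The log2 fold change was 1.11 ± 0.32, or 0.68 with GC correction and 0.69 without KO replicate 3. Its own row held 153, 137 and 128 CPM in WT and 148, 335 and 1439 CPM in KO, and gave 2.20 ± 0.68, or 0.79 without KO replicate 3. mt-Atp8, a small subunit translated from the same transcript, had 73.0, 62.3 and 91.9 CPM in WT and 102, 70.0 and 188 CPM in KO. The groups overlapped through KO replicate 2, and the log2 fold change of 0.66 ± 0.31 was 0.08 with GC correction and 0.18 without KO replicate 3.

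Per 100 counts of mt-Atp6 there were 5.29, 7.74 and 6.63 of mt-Atp8 in WT and 6.22, 3.19 and 4.86 in KO. As for mt-Nd4l, the ratio of KO replicate 1 was within the WT range and those of the other KO libraries were below it. In their own rows the ratios were 47.8, 45.3 and 71.6 in WT and 68.5, 20.9 and 13.05 in KO. These are the shortest mRNAs here, of 204 bases for mt-Atp8 and 297 bases for mt-Nd4l.

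**Figure D3:**
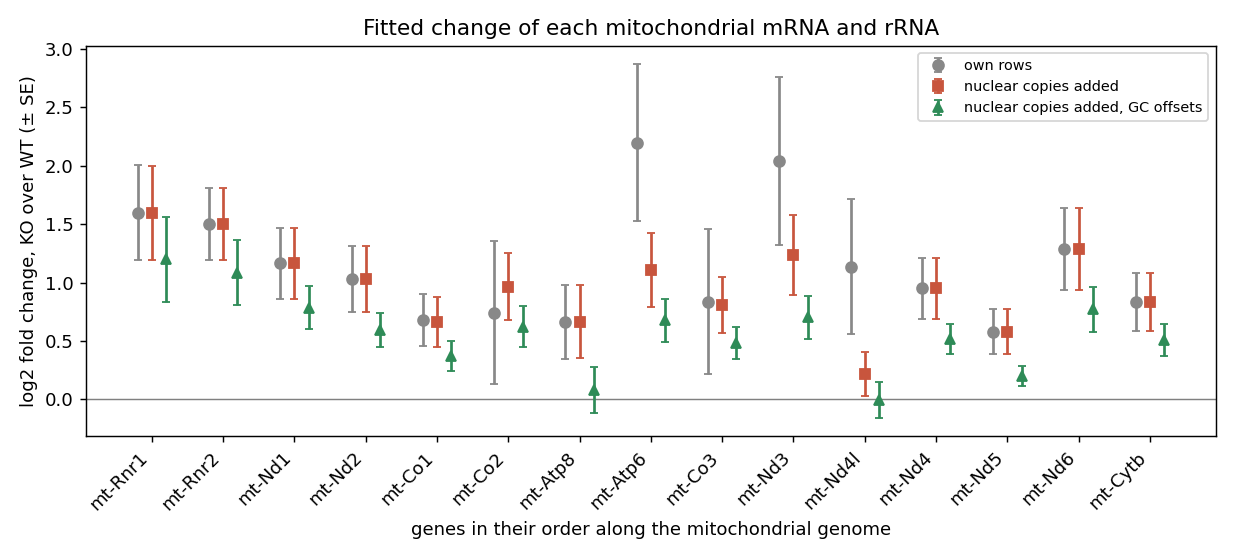
Log2 fold change of KO over WT (± SE, n = 3 per group) for 13 mRNAs and 2 rRNAs in genome order, from own rows (grey), with nuclear copies added (red), and with copies added and GC correction (green). The spread of mt-Atp6, mt-Nd3, mt-Co2, mt-Co3 and mt-Nd4l narrows once copies are added, and with GC correction mt-Nd4l (-0.0098) and mt-Atp8 (0.08) lie near 0.

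Compared per length, the mRNAs spanned a wide range of levels. In WT with copies added, mt-Co1 had 4000 ± 808 CPM per kb (SD, n = 3), mt-Co2 3637 ± 913, mt-Co3 2822 ± 615, mt-Atp6 1748 ± 491, mt-Cytb 1604 ± 324 and mt-Nd1 1519 ± 390. The mRNAs of complex IV thus led the order.

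Lower levels per length were found for the remaining complex I mRNAs and mt-Atp8. In WT mt-Nd4 had 825 ± 181 CPM per kb, mt-Nd5 718 ± 120, mt-Nd2 672 ± 167, mt-Nd3 479 ± 139, mt-Nd4l 448 ± 102, mt-Atp8 371 ± 73.5 and mt-Nd6 335 ± 84.1. Between neighbours in the whole order, the steps from mt-Co3 to mt-Atp6, from mt-Nd1 to mt-Nd4 and from mt-Nd2 to mt-Nd3 were larger than the SD of either gene, and the others were not. Reads from a fragment longer than a short mRNA cannot all be placed on it, so levels of mt-Atp8, mt-Nd4l and mt-Nd3 are not strictly comparable with those of long mRNAs. Levels also depend on capture by poly(A) tails, which was not measured for single mRNAs such as mt-Nd6. Read from its own row, mt-Co2 would have had 76.3 ± 61.1 CPM per kb.

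**Figure D4:**
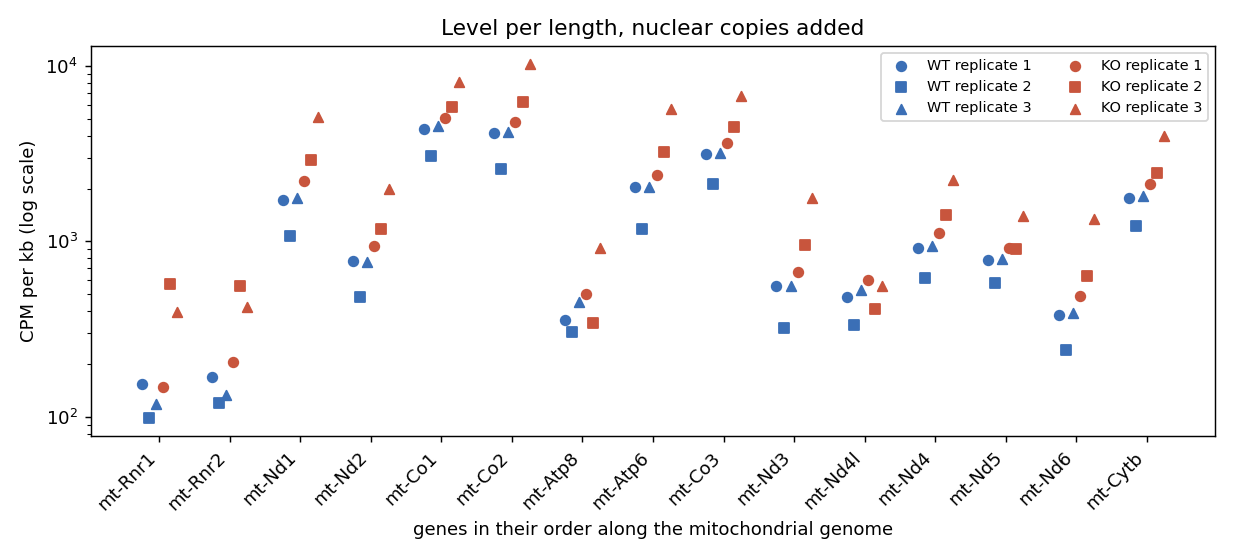
Level of 13 mRNAs and 2 rRNAs in CPM per kb with nuclear copies added (log axis), in genome order, 1 point per library (blue WT, red KO, shape for the replicate). mt-Co1 and mt-Co2 stand highest with WT means of 4000 and 3637 CPM per kb, and the rRNAs have the lowest WT means, 123 ± 28.5 and 140.1 ± 25.1 CPM per kb.

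The make-up of the mitochondrial mRNA pool was compared as the share of its counts in each complex. With copies added, complex IV held 56.96, 57.50 and 56.99% in WT and 55.5, 55.4 and 52.3% in KO. Complex I held 26.6, 26.5 and 26.7% in WT and 27.9, 27.8 and 29.6% in KO. Complex V held 6.84, 6.10 and 6.81% in WT and 6.93, 7.51 and 8.52% in KO. Complexes I and V thus took a larger share, and complex IV a smaller one, in each KO library than in any WT library.

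For each of these 3 shares the exact permutation test gave p = 0.1 (0.125 adjusted). The difference in means was 1.82 percentage points for complex I, -2.75 for complex IV and 1.07 for complex V, and without KO replicate 3 it was 1.25, -1.69 and 0.633. In their own rows the difference was 3.05 percentage points for complex I and -4.06 for complex IV, and 2.32 and -2.28 without KO replicate 3. Complex V, in its own rows, overlapped between the groups (p = 0.7 by the exact permutation test), with means of 2.81% in KO and 1.70% in WT. The KO libraries held 1.47, 2.01 and 4.97%, and without KO replicate 3 the difference of 1.12 percentage points was 0.041. The share of complex III, 9.66% ± 0.214 in WT and 9.53% ± 0.235 in KO (SD, n = 3), overlapped (p = 0.6 by the exact permutation test).

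The rRNAs of the mitochondrial ribosome were found at low levels per length. The kit captures poly(A) tails, which these rRNAs carry only in short form. mt-Rnr1 (chrM:70-1024), of the small subunit, had 147, 93.2 and 113 CPM in WT and 142, 548 and 377 CPM in KO. mt-Rnr2 (chrM:1094-2675), of the large subunit, had 266, 189 and 209 CPM in WT and 326, 885 and 670.0 CPM in KO. KO replicate 1 was near the WT libraries in both genes, and within their range in mt-Rnr1.

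The log2 fold changes of the rRNAs were 1.60 ± 0.41 for mt-Rnr1 and 1.50 ± 0.31 for mt-Rnr2, or 1.20 and 1.08 with GC correction. Per 100 mRNA counts with copies added there were 1.94, 1.99 and 1.48 rRNA counts in WT and 1.87, 4.75 and 2.20 in KO, so that KO replicate 2 stood apart. In this library the nuclear rRNA genes also took 2.71% of all counts, against 0.202 to 0.576% in the other 5 libraries. Without KO replicate 2 the log2 fold changes were 1.14 for mt-Rnr1 and 1.17 for mt-Rnr2, and the difference in rRNA share between KO and WT was 0.0412 percentage points in place of 0.0629. mt-Rnr1 and mt-Rnr2 kept a ratio of 43.5 to 61.9 counts of mt-Rnr1 per 100 of mt-Rnr2 in all libraries.

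The tRNAs, which carry amino acids to the mitochondrial ribosome and lie between the other genes, were almost not counted. Of the 22 tRNA genes 19 were at 0 in all 6 libraries, and the other 3 had 8 counts in all. These were mt-Tq with 2 counts in KO replicate 3, mt-Ts1 with 2 in KO replicate 2 and 3 in KO replicate 3, and mt-Te with 1 in KO replicate 3. All 3 are among the 8 tRNA genes on the minus strand. The count of mt-Ts1 in KO replicate 3 was at the floor of 3 counts, and no tRNA count was above it.

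The nuclear genes that serve the same complexes were compared next. Of 81 tested nuclear subunits of the respiratory chain and ATP synthase, 75 had a log2 fold change above 0, 0 passed the limits, and 37 were higher and 0 lower at an unadjusted p under 0.05, against 13% higher and 13.2% lower among all tested genes. Their median log2 fold change was 0.28, and 0.33 with GC correction. By complex the medians were 0.25 for complex I (37 genes), 0.22 for complex II (4), 0.27 for complex III (9), 0.36 for complex IV (14) and 0.40 for complex V (17). With GC correction they were 0.32, 0.22, 0.47, 0.39 and 0.35 in the same order, so that complex III was highest in place of complex V.

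Among these subunits Uqcrb of complex III had 85.1, 53.1 and 88.3 CPM in WT and 102, 127 and 159 CPM in KO, a log2 fold change of 0.78 ± 0.21. Atp5mk, a small ATP synthase subunit, had 49.4, 32.4 and 50.6 CPM in WT and 60.6, 67.2 and 80.1 CPM in KO, a log2 fold change of 0.65 ± 0.18. In both the groups did not overlap. Ndufb5 of complex I (0.51 ± 0.14) and Ndufv2, which carries an iron-sulfur cluster in complex I (0.48 ± 0.12), were likewise without overlap. So were Cox7a2l, listed with complex IV by its symbol (0.34 ± 0.10), and Sdha, the flavoprotein of complex II, at 0.09 ± 0.08. With GC correction Uqcrb was at 0.51, Atp5mk at 0.44 and Ndufv2 at 0.27.

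The log2 ratio of the summed mitochondrial mRNA counts, with copies added, to those of the nuclear subunits was 1.04, 0.66 and 1.03 in WT and 1.12, 1.28 and 2.03 in KO. The means were 0.91 ± 0.22 in WT and 1.48 ± 0.48 in KO (SD, n = 3 per group, p = 0.1 by the exact permutation test, 0.125 adjusted). The difference of 0.57 was 0.29 without KO replicate 3, and 0.17 without WT replicate 2 as well.

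**Figure D5:**
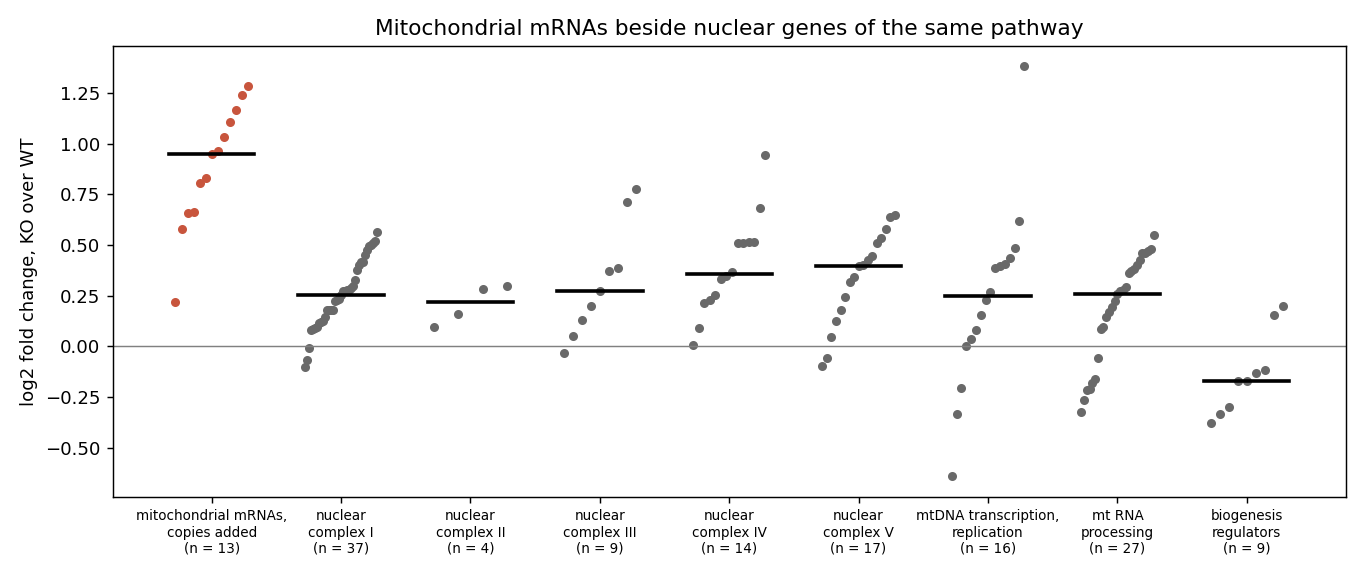
Log2 fold change of KO over WT for the 13 mitochondrial mRNAs with copies added (red) and for nuclear genes of the respiratory complexes and of mitochondrial gene expression (grey), 1 point per tested gene in rising order, with the median as a bar. The medians are 0.95 for the mitochondrial mRNAs, 0.22 to 0.40 for the nuclear complexes and -0.17 for the biogenesis regulators.

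Of 16 genes of mitochondrial transcription and replication 13 had a log2 fold change above 0, 0 passed the limits, and at an unadjusted p under 0.05 there were 6 higher and 2 lower in KO, or 37.5% and 12.5% of the list against 13% and 13.2% of all tested genes. Their median was 0.25, and 0.13 with GC correction. Polrmt, the mitochondrial RNA polymerase, had 30.4, 39.1 and 33.5 CPM in WT and 27.5, 23.5 and 15.02 CPM in KO, and its log2 fold change was -0.64 ± 0.21, or -0.27 with GC correction and -0.43 without KO replicate 3. Tfam, which packages mitochondrial DNA and opens its promoters, had 26.4, 22.5 and 25.6 CPM in WT and 29.1, 30.3 and 38.1 CPM in KO, a log2 fold change of 0.39 ± 0.13, or 0.25 with GC correction and 0.26 without KO replicate 3. Polymerase and promoter factor thus stood on opposite sides of 0, without overlap of the groups in either.

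Of the other transcription genes, Tfb2m, the initiation factor, was at 0.48 ± 0.16 and its relative Tfb1m, which methylates the small rRNA, at 0.44 ± 0.14. Ssbp1, the single-strand binding protein of mitochondrial DNA, was at 0.62 ± 0.19. With GC correction these 3 were at 0.28, 0.23 and 0.35, and without KO replicate 3 Ssbp1 was at 0.39. Mterf2, of the transcription termination factor family, was at 1.38 ± 0.28 with only 0.735 to 1.20 CPM in WT and 1.93 to 2.88 CPM in KO.

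Of 27 genes of mitochondrial RNA processing and decay 20 were above 0, with 13 higher and 0 lower at an unadjusted p under 0.05, against 13% and 13.2% of all tested genes. The median was 0.26, and 0.18 with GC correction. Trmt10c, a subunit of the enzyme that cuts tRNAs from the precursor at their 5′ ends, had 35.0, 29.9 and 34.4 CPM in WT and 42.5, 44.6 and 58.4 CPM in KO, a log2 fold change of 0.55 ± 0.14, or 0.33 with GC correction. Trnt1, which adds CCA to tRNA ends, was at 0.48 ± 0.18, Ptcd3 of the mitochondrial ribosome at 0.46 ± 0.13, Fastkd1 at 0.46 ± 0.14 and Nsun4, an rRNA methyltransferase, at 0.36 ± 0.12. With GC correction these 4 were at 0.20, 0.24, 0.38 and 0.41, and without KO replicate 3 Trnt1 was at 0.27. Lrpprc, which stabilizes mitochondrial mRNAs and supports their polyadenylation, had 123.5, 118 and 119 CPM in WT and 137, 130 and 146 CPM in KO, a log2 fold change of 0.20 ± 0.09, or 0.12 with GC correction.

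The median of the regulators of mitochondrial biogenesis was below 0. Of 9 tested regulators 7 were below 0, with a median of -0.17, and -0.15 with GC correction. At an unadjusted p under 0.05, 0 were higher and 3 lower, against 13% and 13.2% of all tested genes. Those 3 were Tfe3 (-0.30 ± 0.11), Myc (-0.34 ± 0.15) and Pprc1 (-0.38 ± 0.17), 2 transcription factors and a coactivator of the PGC-1 family. With GC correction they were at -0.21, -0.20 and -0.18. Without WT replicate 2, Tfe3 was at -0.19 and Myc at -0.15, and without KO replicate 3 Pprc1 was at -0.24. The groups overlapped in Pprc1. Ppargc1b, the PGC-1 coactivator known for driving mitochondrial biogenesis in osteoclasts, had 25.0, 32.2 and 25.0 CPM in WT and 30.3, 26.4 and 18.4 CPM in KO. Its groups overlapped, and its log2 fold change of -0.13 ± 0.19 was 0.14 with GC correction.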

How the data were processed

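The submitters' processing notes name fastp, HISAT2, StringTie, RSEM and GRCm39, without versions, and libraries were made from poly(A) RNA with a stranded kit. The authors deposited 1 table of estimated counts per gene, not normalized and partly not whole, with their group means, which were not used. Counts were rounded. Genes were kept by filterByExpr, scaled by TMM and compared with edgeR 4.0.16 (R 4.3.3; glmQLFit with legacy = FALSE, glmQLFTest, no covariates), with Benjamini-Hochberg adjustment over all tested genes. Shares were compared by two-sided exact permutation tests. Nuclear copies were found with blastn 2.17.0 in GENCODE M21 transcripts (GRCm38), from which all positions, lengths, GC contents and sequences come. GC correction used offsets from a spline per library. Alternatives were DESeq2 1.42.0, limma-voom (limma 3.58.1), other scalings, filters and limits, a replicate block and libraries left out. The fits were tested on simulated data. The members and lists were chosen with earlier results of these data known. The named genes were all mRNAs and rRNAs, copies with at least 1% of a gene's counts, Ttc39aos1, Ppargc1b, Tfam, Polrmt, Lrpprc and, of the 5 smallest p-values of each nuclear list, those given. Dtx3l, Gm28439 and the 3 tRNAs with counts were named after their values were seen, and Bglap as a marker at 0.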

Additional observations from a re-analysis of the deposited data

How the results depend on the processing

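The number of members past the limits was 0 in the edgeR and limma-voom alternatives, and 2 with DESeq2 (1 with nuclear copies added). Over all tested genes 1 gene passed in the main comparison, 125 with DESeq2, 123 with DESeq2 and copies added, 3 with GC offsets, 4 with GC offsets and copies added, and 8 without both WT replicate 2 and KO replicate 3. With each library left out in turn it was 0 to 2 genes, also with copies added, and 0 members. The causes were not tested.

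Log2 fold changes that reversed were those of mt-Co2 (-0.13 without KO replicate 3 and -0.40 without WT replicate 2 as well), mt-Co3 (-0.14 without both), mt-Nd4l (-0.012 without KO replicate 3, -0.28 without both, and -0.0098 with copies added and GC offsets), Gabpa (-0.040 with GC offsets, with or without the block) and Ppargc1b (0.14 with GC offsets, 0.13 with GC offsets and the block, 0.00026 without WT replicate 2, 0.052 without KO replicate 3 and 0.18 without both). In their own rows, leaving out each library in turn gave -0.13 to 1.63 for mt-Co2, -0.012 to 1.51 for mt-Nd4l and -0.29 to 0.052 for Ppargc1b. With copies added and each library left out in turn, all 15 members stayed above 0, between 0.043 and 1.98. mt-Nd4l was lowest and mt-Rnr1 highest.

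A fit with the replicate block called 0 members and 1 of all genes. The same-numbered WT and KO libraries had correlations of -0.215, 0.0766 and 0.166, and pairs of unlike number had -0.29 to 0.29. With 3 libraries per group these values cannot decide whether same-numbered samples were prepared together, and the labels give only the number. At an unadjusted p under 0.05 all 15 members, read from their own rows, were higher in KO with the block, against 12.6% of all tested genes. As above, the members are not independent of each other. With copies added mt-Nd4l was at an unadjusted p of 0.0745 by edgeR with the block, and the others were under 0.05. The tRNAs had at most 3 counts, at which no comparison was made.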
